A study of Homo sapiens with 4 samples.

Results

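The splicing factor and snRNP genes described here are the protein-coding genes whose symbols carry the family names SRSF, HNRNP, SNRP, SF3A or SF3B, LSM, PRPF or U2AF. The table of transcript abundances holds 83 of them among 33478 rows, of which 18833 are protein-coding. A mean of at least 1 TPM (a unit of abundance that accounts for gene length and library total) over all libraries was required for testing, and 77 of the 83 met it, among 14038 genes kept. They comprised 11 of 12 SRSF, 21 of 26 HNRNP, 11 of 11 SNRP, 8 of 8 SF3, 13 of 13 LSM and 12 of 12 PRPF genes, and U2AF1L4 as the 1 U2AF gene with a row. These totals count rows of the table, not whole families: U2AF1, U2AF2, SNRPD3, SF3A1 and PRPF31 have no protein-coding row under these symbols. The 6 below the filter were SRSF12, HNRNPA1L2 and the 4 HNRNPCL genes. HNRNPCL1, HNRNPCL2 and HNRNPCL3 were listed at 0 in every library.

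Splicing removes introns from pre-mRNA and is carried out by the spliceosome, which is built from small nuclear ribonucleoproteins (snRNPs), each a short RNA wrapped by a ring of Sm or LSM proteins and bound by proteins of its own. The SF3a and SF3b complexes hold the U2 snRNP at the branch point, U2AF proteins read the 3′ splice site, and PRPF proteins assemble, remodel or join the snRNPs. SR proteins (SRSF) mostly favour the use of nearby splice sites, and hnRNP proteins bind nascent transcripts and often oppose that use, so the balance of both classes shapes alternative splicing.

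RNA came from MHCC-97H, a human hepatocellular carcinoma line with a high capacity to spread. Cells carried an shRNA against UCK2, which encodes a uridine and cytidine kinase of the pyrimidine salvage pathway (2 libraries, titled with the letter B, which the titles leave unexplained), or a control shRNA (2 libraries). No label says whether the libraries of 1 group are separate cultures or clones, so each p-value measures only the spread between these libraries, which may be technical. If B names 1 hairpin, any effect it has on other genes and that of losing UCK2 cannot be told apart.

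The labels and the data disagree in places that bear on every comparison. UCK2, the targeted gene, measured 121 and 67.8 TPM in libraries labelled UCK2 shRNA (replicates 1 and 2), against 136 and 93.6 TPM in the control libraries. The groups overlapped, and the log2 difference of UCK2 shRNA over control was -0.31 ± 0.30 (SE; limma adjusted p = 0.640), or -0.08 after scaling. The description of UCK2 shRNA replicate 2 names UCK3, that of control replicate 2 names another line number, and the extraction text speaks of retinas. Of 13 retina markers only OPN1SW reached a mean of 1 TPM and GNAT2 was at 0 in every library. Summed levels were 3.09 and 4.62 TPM in libraries labelled UCK2 shRNA and 3.49 and 3.85 TPM in the controls. Of 11 hepatoma markers 9 reached it, led by KRT8 and KRT18, whereas EPCAM and APOB stayed below 1 TPM and ALB lay between 18.6 and 29.5 TPM. Of 6 leukocyte markers CD79A (2.85 to 9.32 TPM) and ITGAM (4.35 to 5.99 TPM) reached it. CD3E was at 0 throughout, and the 6 summed to 9.68 and 8.46 against 12.9 and 14.6 TPM. Of 8 fibroblast and endothelium markers PECAM1 and LUM reached it, with sums of 42.5 and 38.2 against 54.1 and 27.9 TPM. Columns summed to 676811 and 643063 in the libraries labelled UCK2 shRNA and to 850379 and 850534 in the controls. If TPM was scaled over more transcripts than these rows, 32.3% and 35.7% of each library's total lay outside them, against 15.0% and 14.9%. No source used here says so. TPM keeps no read depth, which is therefore unknown, and no counting interval can be given. The columns were for this reason compared both as deposited and after median-ratio scaling, which brought the median log2 difference of all genes to -0.01, against -0.22 as deposited. In bulk RNA, fewer cells expressing a gene and less RNA per cell cannot be told apart.

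As a group the splicing genes were among the abundant genes of the line, and none passed the test between the groups. Their median level was 76.7 TPM, against 11.8 TPM over all genes kept, and single genes averaged between 1.83 TPM (LSM11) and 844 TPM (HNRNPA1). Summed, they reached 9165 and 8744 TPM in libraries labelled UCK2 shRNA and 12192 and 11163 TPM in the controls. By limma with Benjamini-Hochberg adjustment, 0 of 77 were lower and 0 higher at an adjusted p under 0.05, against 0% and 0% of the 14038 genes, and the smallest adjusted p among them was 0.294. After scaling the counts were again 0 lower and 0 higher, against 0% and 0.0641% of all genes.

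As deposited, most of these genes had lower values in the libraries labelled UCK2 shRNA, as abundant genes in general did. The log2 difference was below 0 for 73 of 77 genes (94.8%), against 74.7% of all genes and 88.1% of the 7315 protein-coding genes averaging at least 10 TPM. Their median log2 difference was -0.33, against -0.22 and -0.31. At an unadjusted p under 0.05, 24 were lower (31.2%, against 14% of all genes and 24.7% of the abundant protein-coding ones). Higher at that threshold were 0, against 1.38% and 0.082%. In 51 of 77 genes (66.2%) both libraries labelled UCK2 shRNA lay below both controls, against 44.4% of all genes and 62.8% of the abundant protein-coding ones. Both lay above in 0 genes, against 5.46% and 0.725%.

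Scaling removed most of this shift. The scaled median was -0.09, against -0.01 over all genes and -0.07 over the abundant protein-coding ones, and 51 of 77 (66.2%) were below 0, against 50.8% and 63.7%. At an unadjusted p under 0.05, 0 were lower and 0 higher, against 1.42% and 3.97% of all genes and 1.63% and 1.26% of the abundant protein-coding ones. The libraries labelled UCK2 shRNA lay below both controls in 16 genes (20.8%, against 15.5%) and above both in 9 (11.7%, against 16%). Among the abundant protein-coding genes these shares were 20.3% and 9.25%. Under quantile normalization 36 of 77 were below 0 and the median was 0.02. Below 0 then were 7638 of all 14038 genes (median -0.03) and 3890 of the 7315 abundant protein-coding ones (median -0.02).

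**Figure D1:**
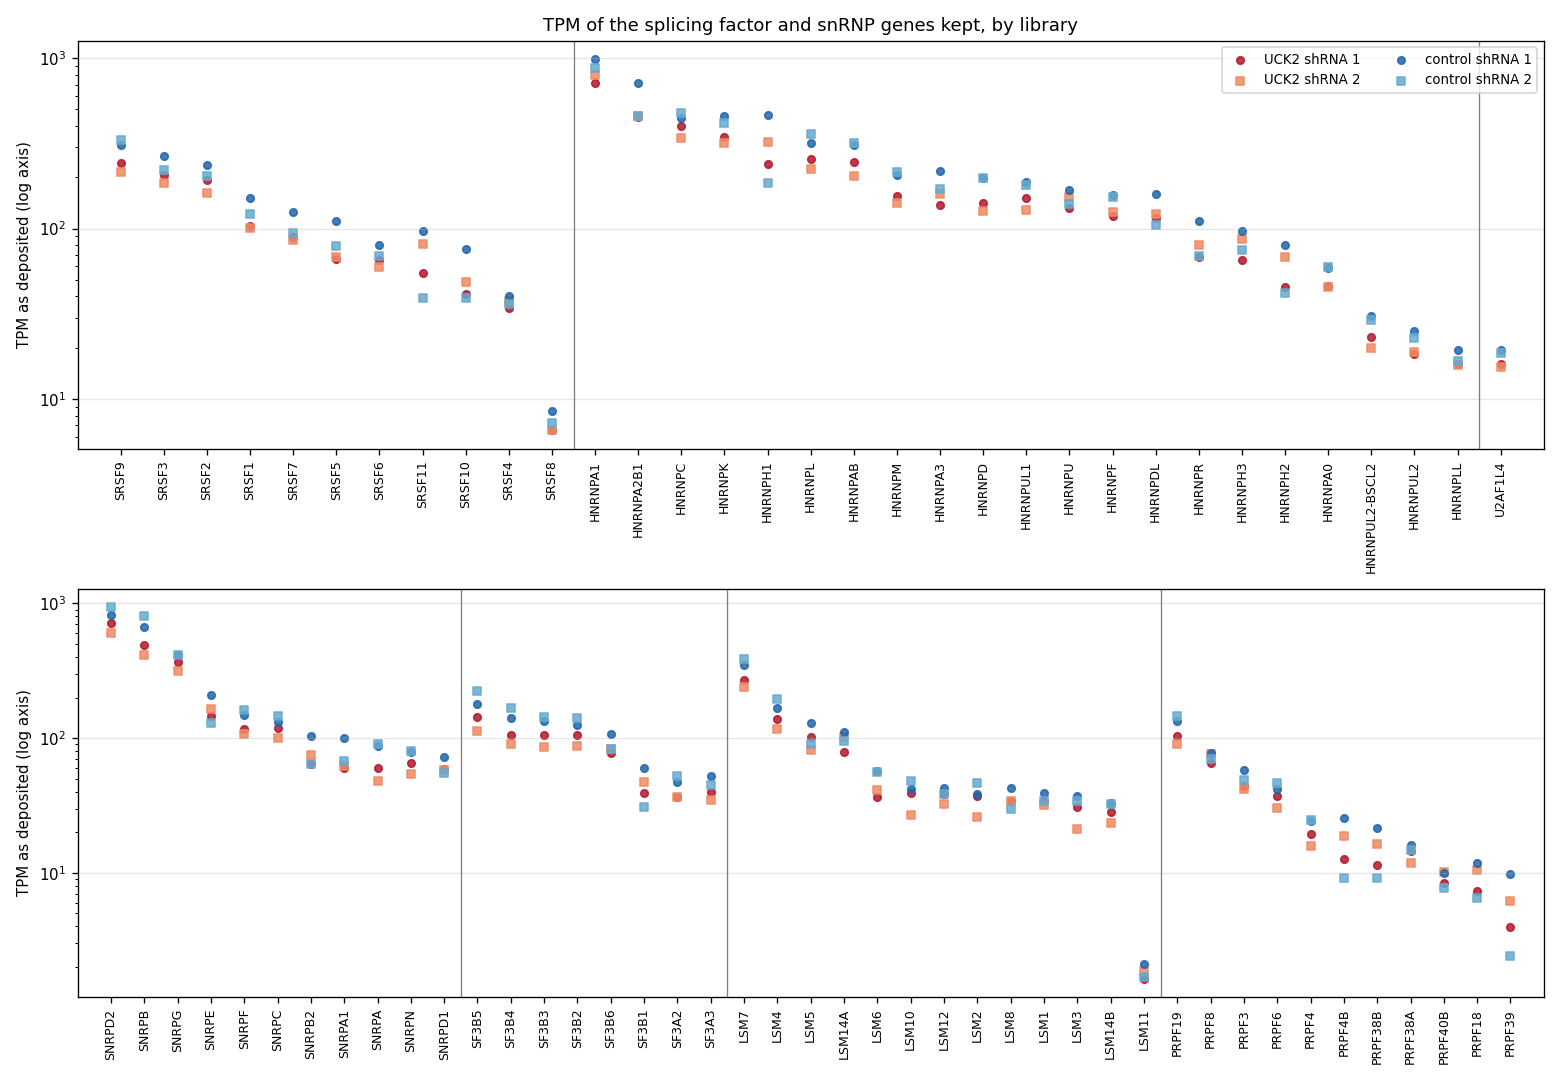
TPM as deposited (log axis) of 76 of the 77 splicing genes kept, by library, grouped by family and sorted by mean level; red and orange points are UCK2 shRNA replicates 1 and 2, dark and light blue points control shRNA replicates 1 and 2. The span runs from LSM11 at 1.83 TPM to HNRNPA1 at 844 TPM, and for genes such as PRPF39 and HNRNPH1 the control libraries are the highest and the lowest of the 4.

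The Sm proteins form the ring around the spliceosomal RNAs, and the 3 most abundant SNRP genes, SNRPD2, SNRPB and SNRPG, encode them, whereas the Sm gene SNRPD1 had the lowest mean of the 11 SNRP genes (61.0 TPM). SNRPD2, encoding SmD2, measured 719 and 600.2 TPM in libraries labelled UCK2 shRNA, against 822 and 935 TPM in the controls. SNRPB, which encodes SmB, measured 495 and 415 TPM against 671 and 811 TPM. Both genes had their 2 lower values in the libraries labelled UCK2 shRNA, with log2 differences of -0.42 ± 0.16 for SNRPD2 (SE; limma adjusted p = 0.308) and -0.70 ± 0.17 for SNRPB (limma adjusted p = 0.294). After scaling SNRPB stood at -0.46 (95% interval -1.03 to 0.11; limma adjusted p = 0.955), and its groups still did not overlap. SNRPE, which encodes SmE, did not follow them: it measured 145 and 165 TPM against 209 and 130 TPM, so the controls enclosed both other libraries. Its log2 difference was -0.09 as deposited and 0.15 after scaling. Of the 6 Sm genes kept besides SNRPN, 6 were below 0 as deposited and 4 after scaling, with medians of -0.35 and -0.11. SNRPD3, which encodes another protein of the ring, has no protein-coding row.

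Among proteins particular to the U1 and U2 snRNPs, SNRPA gave the lowest log2 difference of all 77 genes. SNRPA encodes an RNA-binding protein of the U1 snRNP that holds a stem loop of its RNA. It measured 60.0 and 48.2 TPM in libraries labelled UCK2 shRNA, against 87.6 and 90.8 TPM in the controls, and the groups were apart. The log2 difference was -0.72 ± 0.18 as deposited (SE; limma adjusted p = 0.294) and -0.48 after scaling (95% interval -0.97 to 0.0021; limma adjusted p = 0.918). SNRPB2, encoding the related protein of the U2 snRNP, measured 64.5 and 75.1 TPM against 103 and 63.7 TPM and overlapped. SNRPC, a U1 protein that contacts the 5′ splice site pairing, measured 118 and 101 TPM against 132 and 146 TPM. SNRPN, an Sm gene of the imprinted region of chromosome 15, measured 65.3 and 53.8 TPM against 78.5 and 80.6 TPM, and shares its transcription unit with SNURF, so that the authors' counting could split reads between both. SNRPB2, SNRPC and SNRPN were chosen after their values were seen.

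The LSM genes encode the ring of U6 RNA (LSM2 to LSM8), a cytoplasmic ring of mRNA decay that has LSM1 in place of LSM8, and 2 proteins of the U7 snRNP that processes histone mRNA (LSM10 and LSM11). LSM7 was the most abundant, at 269 and 238 TPM in libraries labelled UCK2 shRNA against 349 and 389 TPM in the controls. LSM4 followed with 139 and 118 TPM against 167 and 196 TPM. Both were apart as deposited, with log2 differences of -0.54 ± 0.15 for LSM7 and -0.50 ± 0.17 for LSM4 (SE, limma adjusted p = 0.294 for each). After scaling they stood at -0.30 and -0.26, and LSM4 overlapped. LSM7 stayed apart only narrowly, with 293 TPM in UCK2 shRNA replicate 1 against 294 TPM in control replicate 1. All 7 genes of the U6 ring were below 0 as deposited and 6 after scaling, with medians of -0.46 and -0.23. LSM11 was the least abundant gene kept, at 1.64 and 1.87 TPM against 2.11 and 1.69 TPM, and its difference of -0.07 turned to 0.09 with scaling. Scaled, its libraries labelled UCK2 shRNA lay above both controls (limma adjusted p = 0.988). The margin was narrow, at 1.79 TPM in UCK2 shRNA replicate 1 against 1.78 TPM in control replicate 1.

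The SF3 family had the lowest median of the families as deposited, -0.46, and after scaling, -0.22, but not after removal of the GC trend, where it stood at -0.12 and the SNRP median at -0.20. SF3B4, an RNA-binding SF3b subunit, measured 105 and 90.7 TPM in libraries labelled UCK2 shRNA, against 142 and 169 TPM in the controls. SF3B5, a small subunit of the same complex, measured 144 and 113 TPM against 180 and 222 TPM. The 2 genes were apart as deposited, at -0.66 ± 0.17 for SF3B4 and -0.64 ± 0.19 for SF3B5 (SE; limma adjusted p = 0.294 for each). Scaled differences were -0.42 for SF3B4 (95% interval -0.94 to 0.10) and -0.40 for SF3B5 (-0.96 to 0.15), and SF3B5 then overlapped. SF3B1, the large subunit that grips the branch point and is often mutated in blood cancers, measured 38.8 and 47.1 TPM against 60.2 and 30.9 TPM. Its control values lay on either side of the others, and its log2 difference of -0.01 became 0.22 with scaling. U2AF1L4, a relative of the small U2AF subunit, measured 16.1 and 15.4 TPM against 19.4 and 18.7 TPM. Its log2 difference of -0.26 was reduced by scaling to -0.03. It overlaps PSENEN on the opposite strand, and since no source used here says whether counting used strand, reads of both genes cannot be told apart.

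The PRPF genes had a median of -0.06 as deposited and 0.18 after scaling, the highest of the families with all 4 libraries. This rank rested on single libraries. Without control replicate 2 the PRPF median as deposited was -0.44, below that of LSM genes (-0.35), and scaled it was -0.07, against 0.01 for LSM genes. Without UCK2 shRNA replicate 2 it was -0.26 as deposited, against -0.18 for LSM genes, and without UCK2 shRNA replicate 1 it was 0.13 and without control replicate 1 it was 0.12. Scaled and without UCK2 shRNA replicate 2 it was -0.02, against 0.05 for LSM genes. PRPF19, a ubiquitin ligase of the complex that activates the spliceosome, measured 104 and 91.1 TPM in libraries labelled UCK2 shRNA, against 134 and 147 TPM in the controls. Its log2 difference was -0.52 ± 0.16 (SE; limma adjusted p = 0.294) and -0.28 after scaling. PRPF8, the large U5 protein at the catalytic centre, measured 64.8 and 76.6 TPM against 76.9 and 70.4 TPM, at -0.06 as deposited and 0.17 after scaling. PRPF40B, a relative of yeast Prp40, a U1 protein that bridges splice sites, measured 8.46 and 10.2 TPM against 9.98 and 7.65 TPM, and stood at 0.08 and, scaled, 0.29. The groups of PRPF8 and PRPF40B overlapped as deposited. After scaling both libraries labelled UCK2 shRNA lay above both controls for each gene (limma adjusted p = 0.955 for each). The count of 0 called among all 77 genes rested on control replicate 1: without it 1 splicing gene was called, of 350 genes called in all (2.49%), the lone control being assumed to vary like the other group.

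The SR protein genes, which encode the classical activators of splice sites, differed by a median of -0.30 as deposited and -0.06 after scaling. SRSF9 measured 243 and 215 TPM in libraries labelled UCK2 shRNA, against 308 and 331 TPM in the controls, at -0.48 ± 0.15 (SE; limma adjusted p = 0.294) and -0.24 after scaling. SRSF3, an SR protein with roles in mRNA export too, measured 206 and 185 TPM against 267 and 221 TPM, at -0.31 and -0.07. SRSF5 had the lowest log2 difference of the family, with 65.9 and 67.7 TPM against 111 and 79.3 TPM (log2 difference -0.48 ± 0.20; limma adjusted p = 0.319), and its groups were apart as deposited and scaled. SRSF11, an SR-related protein, measured 54.5 and 81.6 TPM against 96.3 and 39.1 TPM, with wide overlap and a difference of 0.12 ± 0.40, or 0.35 scaled. The family medians of both classes turned above 0 under quantile normalization, at 0.08 for SRSF and 0.05 for HNRNP.

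The hnRNP genes included the most abundant of the 77, HNRNPA1, and averaged 17.0 to 844 TPM. HNRNPA1, which antagonises SR proteins at many exons, measured 718 and 799 TPM in libraries labelled UCK2 shRNA, against 987 and 872 TPM in the controls. HNRNPA2B1 measured 450 and 456 TPM against 714 and 456 TPM, with control replicate 1 above the other 3 libraries. As deposited HNRNPA1 stood at -0.29 ± 0.15 and HNRNPA2B1 at -0.33 ± 0.22 (SE; limma adjusted p = 0.396 and 0.493), and scaled at -0.05 and -0.09. HNRNPA1 has many near-identical pseudogene copies and HNRNPA2B1 overlaps CBX3 on the opposite strand, so both values are uncertain. HNRNPD, known as AUF1 for its role in the decay of AU-rich mRNA, had the lowest difference of the family: it measured 141 and 127 TPM against 198 and 197 TPM, at -0.56 ± 0.15 (SE; limma adjusted p = 0.294) and -0.33 scaled (95% interval -0.78 to 0.13), apart in both. HNRNPH2, which binds G-rich runs, measured 45.7 and 68.4 TPM against 80.2 and 41.7 TPM, and its difference of -0.05 turned to 0.19 with scaling. In all, 42 of the 77 genes overlap another row of the table and 32 one on the opposite strand; HNRNPUL2 and the readthrough gene HNRNPUL2-BSCL2 are counted as separate genes over shared sequence.

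**Figure D2:**
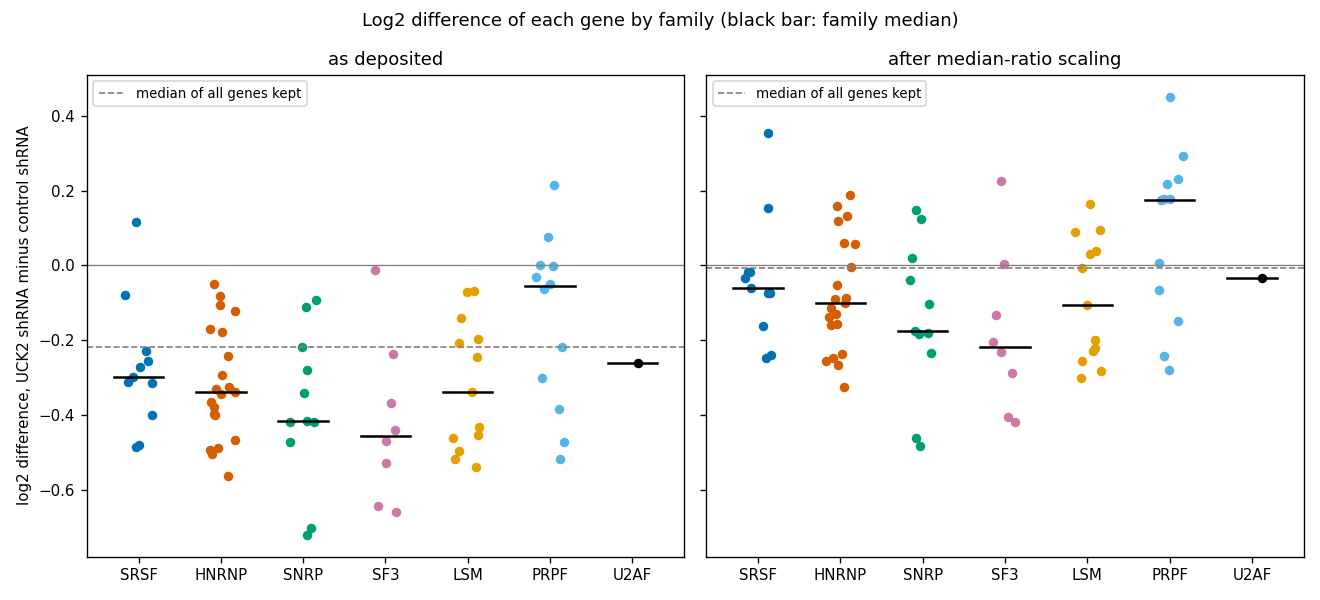
Log2 difference of each of the 77 genes kept, UCK2 shRNA over control shRNA, by family, as deposited and after median-ratio scaling, on the log2(TPM + 1) scale; each point is a gene, black bars are family medians and the dashed line is the median of all genes kept. As deposited 73 of 77 lie below 0 and after scaling 51, and the PRPF family has the highest median under both with all 4 libraries.

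A share of the protein-coding TPM within a library does not depend on how libraries are scaled against each other. All splicing genes together made up 1.39% and 1.40% of it in the libraries labelled UCK2 shRNA, against 1.47% and 1.34% in the controls, so the controls enclosed the other group (difference of means -0.00831 percentage points; exact permutation p = 1, two-sided, where 2 against 2 libraries cannot give less than 0.33). SF3 genes made up 0.0988% and 0.0926% against 0.102% and 0.106%, the U2AF gene 0.00243% and 0.00246% against 0.00234% and 0.00223%, and these were the families whose groups did not overlap (exact permutation p = 0.33 for each, the smallest possible). The SNRP share was 0.343% and 0.320% against 0.341% and 0.354% (exact permutation p = 0.667). HNRNP genes held 0.589% and 0.632% against 0.652% and 0.546%, and the SRSF, LSM and PRPF shares also overlapped. Because percentages sum over unequal genes, each family's share is set mainly by its most abundant members.

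**Figure D3:**
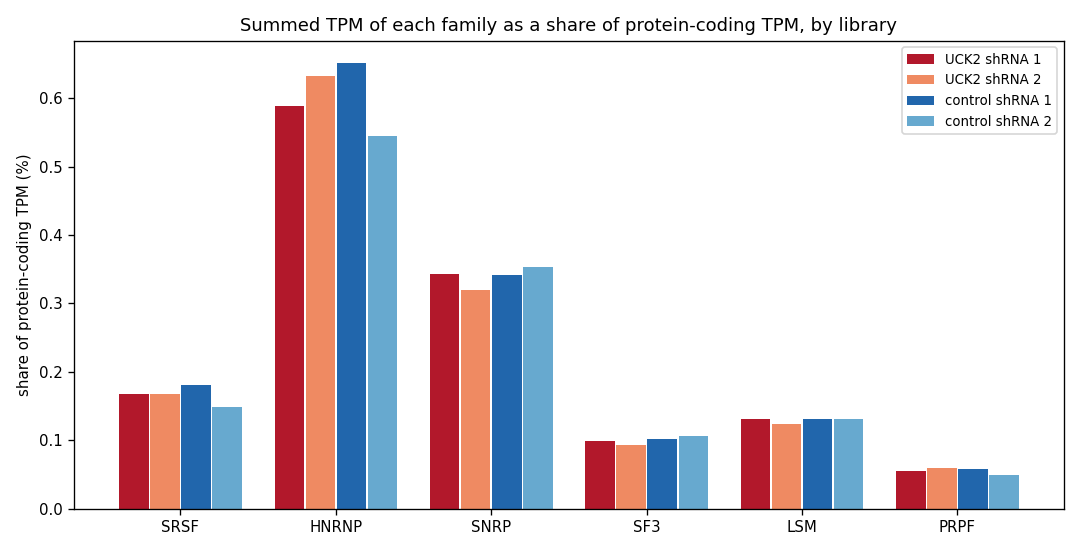
Share of protein-coding TPM (%) held by each family, with 1 bar per library, the UCK2 shRNA libraries (red, orange) left of the control libraries (dark and light blue); the single U2AF gene is not drawn. The SF3 shares of 0.0988% and 0.0926% lie below the control shares of 0.102% and 0.106%, and the hnRNP shares of the controls lie on either side of the others.

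The widest differences lay between libraries of the same group. On the scaled log2 scale the gap between control replicates 1 and 2 ran from -0.54 for SF3B5 to 1.45 for PRPF39. The genes of this paragraph were chosen after their values were seen. PRPF39, a U1-associated protein, measured 3.94 and 6.18 TPM in UCK2 shRNA replicates 1 and 2, against 9.86 and 2.42 TPM in control replicates 1 and 2. PRPF4B, a kinase acting on tri-snRNP proteins, measured 12.6 and 18.9 TPM against 25.7 and 9.11 TPM. HNRNPH1 measured 239 and 323 TPM against 462 and 186 TPM. In each of these, control replicate 1 was the highest library and control replicate 2 the lowest, and UCK2 shRNA replicate 2 exceeded replicate 1. The gaps within both groups had the opposite sign for SNRPB, SF3B5 and LSM2, of which LSM2 measured 37.2 and 25.8 TPM against 38.3 and 46.5 TPM. The control gap was wider than the scaled group difference in 54 of 77 genes (70.1%), against 67.3% of all genes and 71.2% of the abundant protein-coding ones.

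The same ordering recurred inside the other group. The gap of control replicate 1 over 2 was set against that of UCK2 shRNA replicate 2 over 1. This direction was chosen after the values were seen. Both gaps had the same sign in 63 of 77 genes (81.8%), against 64.6% of all genes and 70.6% of the abundant protein-coding ones. In the lists of other pathway genes described below this share ran from 72.2% (snRNP assembly) to 94.1% (other splicing regulators). It was therefore not particular to the 77 genes. Across the 77 genes Pearson's r was 0.787 and Spearman's rho 0.762, against 0.228 and 0.313 across all 14038, genes of low level included. These points share 4 libraries and 1 scaling, genes are not independent replicates, and the figures are a description. Ratios within a library do not depend on scaling, but each pair below, chosen after the values were seen, joins genes whose control gaps had opposite signs. Their ordering therefore follows from the gaps already given and adds no support. SF3B5 over SF3B1 was 3.71 and 2.41 in UCK2 shRNA replicates 1 and 2, against 3.0 and 7.19 in control replicates 1 and 2. SNRPB over SNRPB2 was 7.67 and 5.53 against 6.49 and 12.7, and HNRNPH1 over HNRNPF was 2.0 and 2.58 against 2.95 and 1.22. Each ratio overlapped between the groups (exact permutation p = 0.667 for SF3B5 over SF3B1 and for SNRPB over SNRPB2, and p = 1 for HNRNPH1 over HNRNPF).

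**Figure D4:**
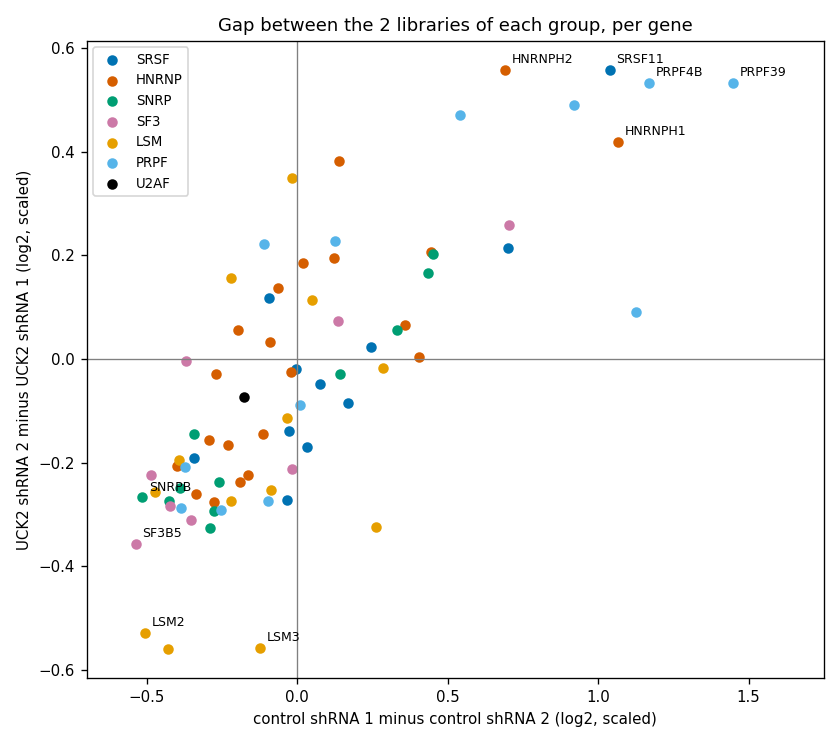
Scaled log2 gap between the libraries of each group for the 77 genes: control replicate 1 minus 2 on the horizontal axis, UCK2 shRNA replicate 2 minus 1 on the vertical axis, coloured by family. PRPF39, PRPF4B, SRSF11 and HNRNPH1 lie at the upper right and SF3B5, SNRPB and LSM2 at the lower left (Pearson's r 0.787, 77 genes).

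The base composition of the transcripts moved with these gaps. The GC content of each gene's principal transcript in GENCODE 29 was available for 76 of the 77 genes and ran from 35.4% to 66.6%, with a median of 45.5%, against 49.0% over the 11541 genes with a value (82.2% of those kept). Among the splicing genes it correlated with the control gap at rho = -0.667, with the UCK2 shRNA gap at -0.489 and with the scaled group difference at -0.571. Over all genes with a value the same measures were -0.583, -0.313 and -0.498. Genes at the 2 ends of the control gap can be told apart by eye in their sequence. The lines below give 120 bases of coding sequence from the GENCODE 29 principal transcript (hg38), 5′ to 3′ in frame, from the window whose GC content is nearest to that of the whole transcript, with every G and C in capitals. The first 2 genes have the widest gaps with control replicate 1 higher and the last 3 those with control replicate 2 higher.
PRPF39: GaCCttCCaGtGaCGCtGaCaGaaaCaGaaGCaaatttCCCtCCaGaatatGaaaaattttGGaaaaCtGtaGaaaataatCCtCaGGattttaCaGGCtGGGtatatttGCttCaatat
PRPF4B: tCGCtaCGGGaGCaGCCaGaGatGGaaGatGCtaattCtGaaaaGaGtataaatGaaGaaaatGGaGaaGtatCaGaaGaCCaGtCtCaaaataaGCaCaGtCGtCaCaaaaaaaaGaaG
SF3B5: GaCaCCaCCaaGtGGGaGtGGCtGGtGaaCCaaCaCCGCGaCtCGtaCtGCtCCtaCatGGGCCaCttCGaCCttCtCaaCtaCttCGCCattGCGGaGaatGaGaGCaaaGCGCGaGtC
SNRPB: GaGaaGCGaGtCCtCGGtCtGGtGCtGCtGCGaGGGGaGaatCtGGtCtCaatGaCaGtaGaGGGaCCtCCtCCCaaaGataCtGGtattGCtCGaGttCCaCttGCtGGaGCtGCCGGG
LSM2: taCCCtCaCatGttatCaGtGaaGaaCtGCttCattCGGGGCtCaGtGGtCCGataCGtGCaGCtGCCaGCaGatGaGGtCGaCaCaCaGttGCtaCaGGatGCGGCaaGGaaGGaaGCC

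These windows hold 44 and 47 G or C bases in PRPF39 and PRPF4B, and 68, 69 and 65 in SF3B5, SNRPB and LSM2. The LSM2 window has 54.2% GC, above the 48.8% of its whole coding sequence. The transcripts lie at chr14:45084099-45115601 (plus strand) for PRPF39, chr6:4021326-4061907 (plus) for PRPF4B, chr6:144094881-144095573 (minus) for SF3B5, chr20:2461634-2470853 (minus) for SNRPB and chr6:31797396-31806984 (minus) for LSM2. PRPF39 has 14 exons and SF3B5 is a single-exon gene. When a smooth trend on GC content was removed from each library, the standard deviation of the control gap among the splicing genes was 0.365, against 0.443 before, and the gaps of the 2 groups still correlated at r = 0.709 (76 genes). The median group difference was then -0.11 with 59 of 76 genes below 0. Over all genes with a value it was -0.01 with 6100 of 11541 below 0. Over the abundant protein-coding ones it was -0.05 with 4421 of 7294 below 0. At an adjusted p under 0.05 limma called 0 of the 76 splicing genes and 1 of the 11541. HNRNPH1, at 51.6% GC, had one of the widest gaps and lay off the trend. SNRPF, with the lowest GC content of the splicing genes (35.4%), had a control gap of -0.34 and lay off it too. NEAT1, a nuclear noncoding RNA, had within-group gaps of the same signs as PRPF39, at 110 and 233 TPM in UCK2 shRNA replicates 1 and 2 against 228 and 85.9 TPM in control replicates 1 and 2, and MALAT1 measured 411 and 1240 TPM against 161 and 58.8 TPM. With KCNQ1OT1, which was below 1 TPM, the summed level of these 3 nuclear RNAs was 522 and 1474 TPM against 389 and 145 TPM. The part of GC content or of nuclear RNA in the differences was not tested.

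**Figure D5:**
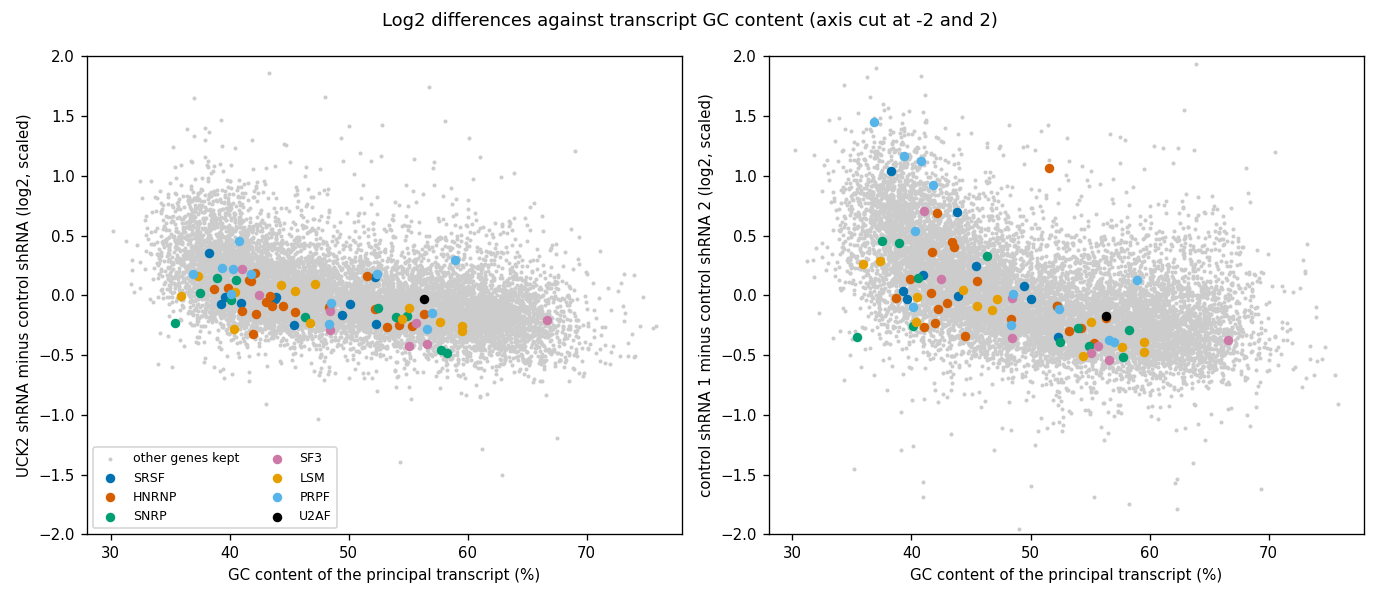
Scaled log2 difference of UCK2 shRNA over control shRNA (left) and scaled gap of control replicate 1 over 2 (right) against the GC content of the principal transcript (%), with splicing genes coloured by family over the other genes kept in grey; values beyond -2 and 2 are not drawn. Both fall with GC content, among the splicing genes at rho = -0.571 on the left and -0.667 on the right.

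Other genes of the pathway were read from 5 lists set by function. By limma 0 of their genes were called at an adjusted p under 0.05, as deposited or after scaling. At an unadjusted p under 0.05 as deposited, 9 core proteins, 4 assembly genes, 3 SR kinase and SR-related genes, 10 other regulators and 4 junction and decay genes were lower, or 17.6% to 29.4% of each list, against 14% of all genes and 24.7% of the abundant protein-coding ones. In each list 0 were higher, against 1.38% of all genes and 0.082% of the abundant protein-coding ones. After scaling 1 core protein was lower, and 1 core protein and 1 junction and decay gene were higher. Among 40 other snRNP and spliceosome core proteins, 34 were below 0 as deposited and 23 after scaling (medians -0.29 and -0.06). Their most abundant gene, TXNL4A, a small U5 protein, measured 291 and 238 TPM in libraries labelled UCK2 shRNA against 448 and 457 TPM in the controls, at -0.78 ± 0.16 (SE; limma adjusted p = 0.294) and -0.54 after scaling (limma adjusted p = 0.894). Its groups were apart as deposited and scaled. Of 18 snRNP assembly genes, which load Sm rings onto the RNAs, 15 and 13 were below 0 (medians -0.32 and -0.11). STRAP, a partner of the SMN complex, measured 122 and 107 TPM against 172 and 160 TPM, at -0.53 ± 0.16 (SE; limma adjusted p = 0.294) and -0.29 scaled. Of 17 SR protein kinases and SR-related genes, 12 and 6 were below 0 (medians -0.13 and 0.11), with SRRM2, a scaffold of nuclear speckles, at 269 and 340 TPM against 453 and 396 TPM. Of 34 other splicing regulators, 28 and 18 were below 0 (medians -0.25 and -0.01), with PCBP2, a C-rich RNA-binding protein, at 467 and 417 TPM against 525 and 526 TPM. Of 15 genes of the exon junction complex and nonsense-mediated decay, 11 and 9 were below 0 (medians -0.33 and -0.09). EIF4A3, the helicase that anchors the junction complex, measured 175 and 162 TPM against 257 and 285 TPM, at -0.68 ± 0.15 (SE; limma adjusted p = 0.294) and -0.44 scaled (limma adjusted p = 0.949), apart in both.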

How the data were processed

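RNA of 4 libraries was measured by paired-end sequencing, per the labels. The authors deposited TPM per gene, with Ensembl identifiers and hg38 positions; the submitters' processing notes list hg38, HTSeq, edgeR, DESeq and TopHat2 2.0.14 without roles, and no source used here gives the strand setting of the counting. TPM is no count, so count tests were not run. Genes averaging at least 1 TPM were compared on log2(TPM + 1), a scale that understates changes of low genes, with limma 3.58.1 in R 4.3.3 (lmFit, eBayes with trend), in two-sided tests at a threshold of 0.05 after Benjamini-Hochberg adjustment over the 14038 genes. The fit was tested on simulated data. Median-ratio scaling used factors of 0.918 and 0.928 for the UCK2 shRNA libraries and 1.19 and 1.00 for the controls, as divisors of each library. Shares were compared by exact permutation tests (scipy 1.17.1). Other pseudocounts, filters, variance models, quantile normalization, the replicate block and leaving out each library were tried. Transcript GC content came from GENCODE 29, in which all 83 identifiers were found; promoter GC content (RefSeq) was available for 66 of the 77 splicing genes kept and correlated with the control gap at r = -0.158. Figures were drawn with matplotlib 3.10.9.

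The members and the gene lists were chosen with earlier results of these data known. Genes were named by a rule: UCK2; per family the 2 with the highest mean TPM and those with the lowest and highest log2 difference; the 3 smallest p-values in each direction; and in each other list the most abundant gene. A gene taken by this rule is not reported here. Samples were grouped by title.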

Additional observations from a re-analysis of the deposited data

How the results depend on the processing

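The call of 0 of 77 splicing genes held under the other pseudocounts, filters, scalings and variance models and with the replicate block. Leaving out each library, with or without scaling, gave 0 to 1 called (1 without control replicate 1), 48 to 77 below 0, medians of -0.42 to -0.0357, 0 to 21 lower and 0 to 7 higher at an unadjusted p under 0.05, and 0 to 350 genes called in all. Genes called in all, against 0 as deposited, were 9 after median-ratio scaling, 8 under quantile normalization and 1 after GC trend removal. Splicing genes lower at an unadjusted p under 0.05, against 24, were 0 after scaling, 1 under quantile normalization, 9 without the variance trend and 1 after GC trend removal. Of all genes 14% were lower at that threshold as deposited and 1.42% after scaling. For the other unadjusted counts of this paragraph shares over all genes were not taken. Those counts are therefore no result about the splicing genes. The median, -0.33, was -0.0863 scaled and 0.0155 under quantile normalization, which left 36 below 0.

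No label says whether the replicate numbers pair the libraries, and the correlation of same-numbered deviations (-0.214 across all genes kept) cannot settle it. With the replicate block 39 of the 14038 genes were called and 13 of the 77 splicing genes were lower at an unadjusted p under 0.05. With scaling and the replicate block these counts were 121 and 0. A crossed pairing, chosen after seeing the data as was the GC trend, follows the gaps that these genes share. It called 727 of the 14038 genes and 11 of the 77 splicing genes, with 39 lower at an unadjusted p under 0.05. With scaling it called 13 genes, with 5 lower. Shares over all genes were not taken for these unadjusted counts, so the counts are no result about the splicing genes.

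Of 28 named genes 14 changed sign in some setting. With scaling (also with either block) these were HNRNPH2 at 0.19, LSM11 at 0.0882, PRPF8 at 0.17, SF3B1 at 0.22 and SNRPE at 0.15. Under quantile normalization these were HNRNPA1 at 0.0897, HNRNPA2B1 at 0.0658, HNRNPH2 at 0.28, PCBP2 at 0.15, PRPF8 at 0.31, SF3B1 at 0.29, SNRPE at 0.31, SRSF3 at 0.0838 and UCK2 at 0.0592. After GC trend removal these were HNRNPH2 at 0.0759, LSM11 at 0.0308, PCBP2 at 0.0237, PRPF8 at 0.24, SF3B1 at 0.0851, U2AF1L4 at 0.0754 and UCK2 at 0.0227. Leaving out each library, with or without scaling, gave -0.38 to 0.0198 for HNRNPA1, -0.65 to 0.11 for HNRNPA2B1, -0.51 to 0.53 for HNRNPH2, -0.17 to 0.15 for LSM11, -0.33 to 0.12 for PCBP2, -0.0958 to 0.41 for PRPF40B, -0.18 to 0.29 for PRPF8, -0.48 to 0.57 for SF3B1, -0.55 to 0.0468 for SNRPD2, -0.43 to 0.36 for SNRPE, -0.52 to 0.87 for SRSF11, -0.45 to 0.014 for SRSF3, -0.29 to 0.0634 for U2AF1L4 and -0.72 to 0.35 for UCK2. The causes were not tested.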
